A study of Mus musculus with 6 samples.

Results

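The epithelial keratins and adhesion genes of CT26 tumors were examined one by one in 3 NaCl and 3 H89-treated tumors. The set held 10 of the 23557 genes in the table: the simple epithelial keratins Krt7, Krt8, Krt18, Krt19 and Krt20, and the adhesion genes Cdh1, Epcam, Fat2, Cdsn and Dsp. The set was chosen by gene name around Krt18, Fat2 and Cdsn, which were selected on their lower CPM in H89-treated tumors, so the treatment contrast of these 10 genes is described here with no test. CT26 is a colon carcinoma line of BALB/c mice, and H89 is an inhibitor of protein kinase A that also acts on other kinases. All mice were female BALB/c, were 7 weeks old when purchased, and received 500000 CT26 cells under the skin. Treatment began on day 6 with 2 intraperitoneal injections a week, H89 at 10 mg/kg in one group and the NaCl vehicle in the other, and tumors were removed on day 14. Whole tumors were sequenced, with tumor cells, stroma, vessels and leukocytes together, and 1 cultured line injected under the skin of otherwise normal mice is the only tumor model here.

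Keratins are the intermediate filament proteins of epithelial cells. A filament is built from pairs of an acidic type I keratin and a basic type II keratin, so that Krt18, Krt19 and Krt20 (type I) need a type II partner such as Krt8 or Krt7. Simple epithelia such as that of the colon are known for Krt8 with Krt18, Krt19 and Krt20. Cdh1 (E-cadherin) joins neighboring epithelial cells at adherens junctions, Epcam is an adhesion protein of most simple epithelia, and Dsp (desmoplakin) ties keratin filaments to the desmosome. Cdsn (corneodesmosin) is a secreted adhesive protein of the corneodesmosomes of skin, and Fat2 is a giant protocadherin known from skin epithelium and from neurons of the cerebellum.

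The 10 genes are spread over 5 chromosomes of the GRCm38 build, in the positions of GENCODE M21. Krt8 (chr15:101996698-102004482, minus strand) and Krt18 (chr15:102028180-102032027, plus strand), the classical partners, lie 23697 bases apart with 0 annotated genes between them. Krt7 is on the same chromosome (chr15:101411043-101430313, plus strand). The type I genes Krt20 (chr11:99428403-99438150, minus strand) and Krt19 (chr11:100140810-100148665, minus strand) share chromosome 11 with Fat2 (chr11:55250609-55336564, minus strand). Cdsn (chr17:35552128-35557180, plus strand) and Epcam (chr17:87635979-87651129, plus strand) are on chromosome 17, Cdh1 (chr8:106603351-106670246, plus strand) is on chromosome 8 and Dsp (chr13:38151294-38198577, plus strand) is on chromosome 13. Exons of Krt7, Krt8 and Dsp overlap those of the predicted genes Gm671, Gm36026 and Gm10129, and the counts of these 3 genes may hold reads of those neighbors. Of the stretches of 31 bases in the transcripts of Krt8, 36.05% also occur in another gene, most of them in the processed copy Krt8-ps, which has no column in the table, and for Krt18 this share was 11.37%. It was 0 for Krt20, Cdsn, Fat2 and Epcam, and 3.13% for Krt7, spread over 3433 other genes.

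The stretches before the start sites of the partner pair Krt18 and Krt8, of the most abundant keratin Krt20 and of Cdsn are shown, since these genes stand side by side in the results that follow. The sequences are those of RefSeq on GRCm38.p6, at most 250 bases long, 5′ to 3′ on the strand of the gene, and each stops where an annotated exon begins. Of the 10 genes 8 matched an entry of the RefSeq promoter table by symbol, all but Krt19 and Cdh1. They cover chr15:102027966-102028179 (Krt18), chr15:102004483-102004592 (Krt8), chr11:99438154-99438403 (Krt20) and chr17:35551878-35552127 (Cdsn). Capitals mark matches to any of 5 motifs, searched on both strands: the CREB response element TGACGTCA, the AP-1 site TGANTCA, the Snail E-box CAGGTG, the TATA box TATAAA and the GC box GGGCGG.
Krt18: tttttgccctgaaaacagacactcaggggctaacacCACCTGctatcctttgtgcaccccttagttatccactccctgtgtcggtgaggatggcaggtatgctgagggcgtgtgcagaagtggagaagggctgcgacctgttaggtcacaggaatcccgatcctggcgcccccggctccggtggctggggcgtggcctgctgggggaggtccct
Krt8: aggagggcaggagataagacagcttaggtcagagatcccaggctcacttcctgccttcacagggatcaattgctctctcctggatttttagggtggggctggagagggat
Krt20: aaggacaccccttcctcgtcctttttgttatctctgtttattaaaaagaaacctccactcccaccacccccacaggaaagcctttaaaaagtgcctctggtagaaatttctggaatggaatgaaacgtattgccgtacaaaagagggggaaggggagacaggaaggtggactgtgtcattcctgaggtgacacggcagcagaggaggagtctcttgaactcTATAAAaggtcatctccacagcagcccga
Cdsn: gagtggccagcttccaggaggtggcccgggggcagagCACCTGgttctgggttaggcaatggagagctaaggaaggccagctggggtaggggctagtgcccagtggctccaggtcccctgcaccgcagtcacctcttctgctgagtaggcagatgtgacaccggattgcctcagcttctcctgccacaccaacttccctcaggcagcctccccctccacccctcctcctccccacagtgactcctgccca
Krt20 held 1 TATA box, which started 29 bases before the end of the stretch, and 12.37% of 32851 RefSeq promoters held one in a window of the same length. Krt18 and Cdsn each held 1 Snail E-box, on the opposite strand, which started 178 and 213 bases before the end. Such a match occurred in 15.2% and 17.22% of promoters in windows of these lengths. The Krt8 stretch, of 110 bases, held no match to any of the 5 motifs, and no CREB response element or AP-1 site was found in the 4 stretches. These are matches of letters only.

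The total count per tumor was between 27067349 and 31958793, so that 1 count was worth less than 0.1 CPM. Values below are counts per 1000000 counts (CPM), scaled by the trimmed mean of M values (TMM), unless they are called TPM. The TPM were computed from the counts divided by transcript length, with no TMM scaling, and serve to compare genes with each other within a tumor. A count of 0 allowed up to 3 counts, which is between 0.0912 and 0.112 CPM, counting error only. H89-treated tumor 3 stood furthest from the other tumors of its group (chi-square per gene 80.0 and 101, against 25.3 to 40.1 for the other pairs of a group). The leukocyte gene Ptprc (CD45) was 25.2, 31.5 and 29.9 CPM in NaCl tumors 1 to 3 and 48.2, 47.2 and 78.8 CPM in H89-treated tumors 1 to 3. As whole tumors were sequenced, fewer cells of a type and less RNA per cell cannot be told apart in any value that follows.

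The labels name a colorectal carcinoma, and the listed genes of the colon epithelium were scarce in all 6 tumors. The list leaves out the keratins of the set, among them Krt20, whose higher values are given below. Of 18 listed colon genes 17 had a column, 3 were at 0 in every tumor and 9 never passed 3 counts, and the sum of the list was 9.74 to 13.5 CPM with NaCl and 12.1 to 13.4 CPM with H89. The highest mean CPM in the list was that of Lgals4, a galectin of intestinal epithelium, at 5.59 to 8.12 CPM. Aqp8, Cdh17 and Cdhr5, a water channel and cadherins of the gut lining, were at 0.585 to 2.63 CPM, with overlapping groups. Cdx2, the transcription factor that defines intestinal identity, was at 0.0719 to 0.304 CPM. By contrast Vim (vimentin), the intermediate filament of mesenchymal cells, reached 4971 to 5726 TPM, which was 44.5 to 66.4 times the summed TPM of all keratins. Vimentin is also made by fibroblasts, vessels and leukocytes, and how much of it came from CT26 cells was not tested.

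Krt20 had the highest level per length of the 10 genes in every tumor, and its simple type II partners were nearly missing. In NaCl tumors 1 to 3, Krt20 was 103, 94.9 and 97.8 CPM, and in H89-treated tumors 1 to 3 it was 66.2, 81.4 and 65.7 CPM. All 3 H89-treated tumors lay below all 3 NaCl tumors, with means of 98.6 ± 4.09 and 71.1 ± 8.90 CPM (SD, n = 3 per group) and a log2 fold change of -0.47 (SE 0.10). Per length, Krt20 stood at 64.5 ± 9.19 TPM over the 6 tumors (SD, n = 6), and its share of the TPM of all keratins was 62.6% to 71.2%. It was thus the main keratin transcript of both groups, and its fold change was smaller in size than those of Krt18, Fat2 and Cdsn.

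Krt18 was the second simple type I keratin. Its CPM was 13.2, 13.4 and 23.5 in the NaCl tumors and 8.31, 7.75 and 8.27 in the H89-treated tumors. NaCl tumor 3 was far above the other NaCl tumors, while the H89-treated tumors lay within 1 CPM of each other and below all NaCl tumors. The log2 fold change was -1.04 (SE 0.23), and -0.71 without NaCl tumor 3. Krt18 made up 20.5% of all keratin TPM in NaCl tumor 3 and 9.10% to 13.1% in the other tumors. Krt19, the type I keratin that has no tail domain, was counted 11, 0 and 3 times in the NaCl tumors and 71, 12 and 8 times in the H89-treated tumors. These are 0.396, 0 and 0.110 CPM against 2.53, 0.365 and 0.243 CPM. The groups overlapped, and most of the counts came from H89-treated tumor 1. The log2 fold change of 2.56 (SE 1.15) was 0.82 without that tumor and 4.11 without NaCl tumor 1.

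The type II keratins Krt8 and Krt7 stood at 2.18 CPM or lower in all tumors. Krt8 was counted 5, 4 and 37 times in the NaCl tumors (0.180, 0.149 and 1.35 CPM) and 61, 15 and 28 times in the H89-treated tumors (2.18, 0.456 and 0.851 CPM). NaCl tumor 3 lay above H89-treated tumors 2 and 3, so the groups overlapped. Its log2 fold change of 1.03 (SE 0.86) went up to 2.77 without NaCl tumor 3 and down to 0.22 without H89-treated tumor 1. Krt7, the usual partner of Krt19 in ducts, was 0.407, 0.498 and 0.452 CPM with NaCl and 1.38, 1.32 and 0.880 CPM with H89. All H89-treated tumors lay above all NaCl tumors, at 28.95 to 43.41 counts against 11.31 to 13.36 counts. Krt7 shares stretches with many genes, and the part of their reads in these counts was not tested. The log2 fold change was 1.43 (SE 0.30), and 0.58 after quantile normalization on a log2(CPM + 0.5) scale. The NaCl mean of Krt7 (0.452 CPM) lay under the filter of a mean of 0.5 CPM, and Krt7 passed through its H89 mean of 1.19 CPM. Krt19 passed in the same way, with means of 0.168 and 1.05 CPM. Either gene, if as low with H89 as with NaCl, would have had no fold change under this filter. With no filter the log2 fold changes were 1.42 for Krt7 and 2.55 for Krt19. The fold changes were thus down for Krt18 and Krt20 and up for Krt7, whose rise the filter favored. Krt8 and Krt19 rested on single tumors.

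**Figure D1:**
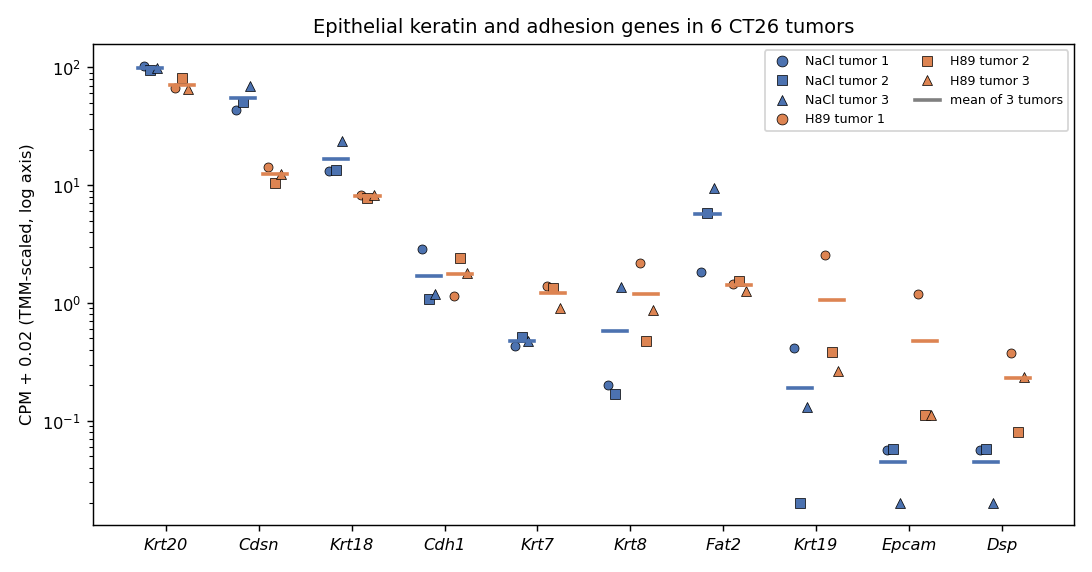
CPM (TMM-scaled, plus 0.02, log axis) of the 10 genes in each of 3 NaCl tumors (blue) and 3 H89-treated tumors (orange), with symbols for tumors 1, 2 and 3 and a bar at the mean of 3 tumors. Krt20 has the highest CPM throughout, at 65.7 to 103 CPM, Cdsn, Krt18 and Fat2 show lower orange points, and Epcam and Dsp are lowest, at 0.0373 CPM or under in every NaCl tumor.

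The balance of type II and type I keratins was tested between genes within each tumor, a comparison that the choice of genes did not use directly. Krt18 was chosen for its fall in these tumors, which takes a gene expressed there. Its level is thus not fully free of that choice. Per length, Krt8 lay below Krt18 in 6 of 6 tumors. The log2 ratio of Krt8 over Krt18 (TPM) was -6.54, -6.80 and -4.55 in the NaCl tumors and -2.37, -4.50 and -3.71 in the H89-treated tumors. The mean was -4.75 ± 1.69 (SD, n = 6), and an exact two-sided sign-flip test against equal levels gave p = 0.03125, the smallest p that 6 tumors allow. The ratio was closest to balance in H89-treated tumor 1, and H89-treated tumor 2 (-4.50) and NaCl tumor 3 (-4.55) were nearly alike. Summed over the 5 keratins of the set, type II over type I stood at -6.31 ± 1.24 on the log2 scale (lower in 6 of 6 tumors, p = 0.03125 by the same exact sign-flip test). Krt8 transcripts share many stretches with Krt8-ps, and how the counting placed such reads was not tested.

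The other keratins of the table hardly filled this gap, with the exception of Krt80. The table held 54 keratins, 28 of type I and 26 of type II. Of these, 20 were at 0 in all tumors, 35 never passed 3 counts, and 2 of the 49 outside the set reached the mean of 0.5 CPM needed for the test. Krt80, a type II keratin found in many epithelia near the cell edge, was 32.4, 31.1 and 27.3 CPM in the NaCl tumors and 24.4, 22.9 and 30.1 CPM in the H89-treated tumors. The groups overlapped (log2 fold change -0.23, SE 0.13, edgeR Benjamini-Hochberg adjusted p = 0.301). Krt80 made up 11.1% to 18.3% of all keratin TPM, whereas all other type II keratins together made up 0.522% to 3.80%. Krt10, the type I keratin of the upper epidermis, was 2.66, 1.90 and 3.36 CPM with NaCl and 3.39, 3.56 and 2.89 CPM with H89 (log2 fold change 0.31, SE 0.25, edgeR adjusted p = 0.465). Krt1, the type II partner of Krt10 in skin, was at 0 in all 6 tumors. With every keratin of the table included, the log2 ratio of type II over type I was -2.44 ± 0.31 (SD, n = 6, lower in 6 of 6 tumors, exact sign-flip p = 0.03125). Type I transcripts were thus the larger part in each tumor also when Krt80 was counted, and all keratins together came to 82.4 to 111.6 TPM.

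**Figure D2:**
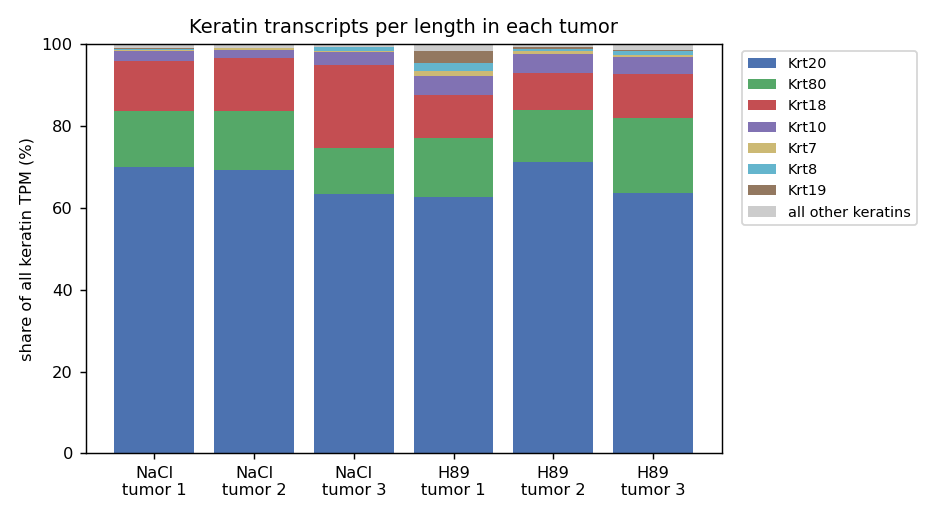
Share of each keratin in the summed TPM of all keratins (percent, stacked bars from 0 to 100) in each of the 6 tumors. Krt20 takes 62.6% to 71.2%, the type II keratin Krt80 11.1% to 18.3%, Krt18 is largest in NaCl tumor 3 with 20.5%, and Krt8 and Krt19 are visible mainly in H89-treated tumor 1.

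Among the adhesion genes, Cdsn and Fat2 were lower in all H89-treated tumors. Cdsn was 43.1, 51.1 and 69.7 CPM in the NaCl tumors and 14.3, 10.3 and 12.4 CPM in the H89-treated tumors. The lowest NaCl tumor stood well above the highest H89-treated tumor, and the log2 fold change was -2.15 (SE 0.20), between -2.29 and -1.93 over all other settings. Fat2 was 1.80, 5.78 and 9.50 CPM in the NaCl tumors and 1.43, 1.52 and 1.25 CPM in the H89-treated tumors. The NaCl tumors differed widely, and NaCl tumor 1 lay close to the H89-treated tumors. The log2 fold change of -2.02 (SE 0.53) was -1.44 without NaCl tumor 3. Fat2 is encoded by a long transcript, and its level per length was 0.136 to 0.915 TPM, against 6.25 to 36.2 TPM for Cdsn.

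Cdh1, Epcam and Dsp, the genes of the classical epithelial junction, were low in all tumors, and Epcam and Dsp had at most 1 count in any NaCl tumor. Cdh1 was 2.84, 1.05 and 1.17 CPM in the NaCl tumors and 1.12, 2.37 and 1.77 CPM in the H89-treated tumors. The groups overlapped, with a log2 fold change of 0.05 (SE 0.45) that was -0.14 after quantile normalization and between -0.23 and 0.66 with 1 tumor left out. Epcam was counted 1, 1 and 0 times in the NaCl tumors and 33, 3 and 3 times in the H89-treated tumors, where H89-treated tumor 1 held most of the counts (1.18 CPM). Dsp was counted 1, 1 and 0 times in the NaCl tumors and 10, 2 and 7 times in the H89-treated tumors, at most 0.357 CPM. All H89-treated tumors lay above the NaCl tumors for both genes. However, Epcam in H89-treated tumors 2 and 3 and Dsp in H89-treated tumor 2 were also within the 3 counts that a count of 0 allows. In those tumors a difference from NaCl is not shown. Neither gene reached the mean of 0.5 CPM needed for the test, and no fold is given, since all NaCl tumors were below these 3 counts.

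In the contrast of treatments as a whole, 4 of the 10 genes (Krt18, Krt20, Cdsn, Fat2) had all H89-treated tumors below all NaCl tumors, 3 (Krt7, Epcam, Dsp) had all above, and in 3 (Krt8, Krt19, Cdh1) the groups overlapped. Of the 13118 genes tested, 15.5% had all H89-treated tumors below and 15.2% all above. Epcam and Dsp failed the filter and are not among the genes tested, so these shares do not cover them. Of the genes with all above, Krt7 alone was tested. With CPM of the total count in place of TMM scaling, these shares were 10.0% and 20.5%, and the counts among the 10 genes stayed at 4 and 3. The edgeR test called 1.59% of all genes tested at a Benjamini-Hochberg adjusted p under 0.05, or 208 genes, of which 113 (0.861%) were higher and 95 (0.724%) lower with H89. The direction of the split turned with the setting: higher and lower calls were 117 and 62 with upper quartile scaling and 55 and 26 with quantile normalization, but 123 and 128 with median ratio scaling, 144 and 167 with no filter, 108 and 112 with voom and 642 and 764 with DESeq2. With any 1 tumor left out, edgeR called 0 to 12 genes. Of the 10 genes 8 passed the filter of a mean of 0.5 CPM. Their log2 fold changes ran from -2.15 for Cdsn to 2.56 for Krt19, and Krt7 and Krt19 passed the filter only through their H89 means. Since the genes were chosen with this contrast in view, nothing is read from their counts against these shares.

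**Figure D3:**
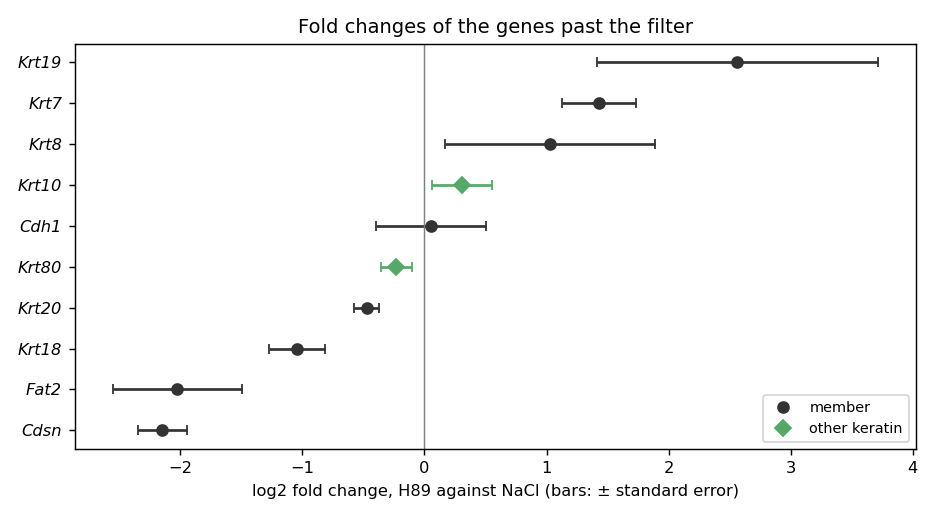
Log2 fold change of H89-treated against NaCl tumors (x axis, edgeR, bars ± 1 standard error, 3 tumors per group) for the 8 genes of the set that passed the filter (black) and for Krt80 and Krt10 (green). Cdsn and Fat2 lie near -2, Krt18 near -1, Krt80 and Krt10 near 0, and the bars of Krt19 and Krt8 are the widest.

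By the mean of log2(TPM + 0.01) over the 6 tumors, the order of the 10 genes by level per length was Krt20, Cdsn, Krt18, Cdh1, Krt7, Krt8, Fat2, Krt19, Epcam and Dsp. Mean levels over the 6 tumors were 64.5 ± 9.19 TPM for Krt20, 17.8 ± 12.5 TPM for Cdsn and 12.5 ± 5.43 TPM for Krt18 (SD, n = 6). The next 6 genes had means between 0.272 and 0.667 TPM, and Dsp had 0.0206 ± 0.0243 TPM. The middle of this order was not stable: Krt8 stood above Krt7 in 5 of 8 alternatives (another length, another pseudocount, 1 tumor left out) and Krt19 above Fat2 in 3 of 8, and by mean TPM Krt8 (0.654) and Krt19 (0.577) stood above Krt7 (0.527). Krt19 had a mean of 0.145 ± 0.174 TPM with NaCl and 1.01 ± 1.21 TPM with H89 (SD, n = 3). Neighbors in this order were compared within tumors by an exact two-sided sign-flip test on log2(TPM + 0.01), in 9 comparisons. Krt20 lay above Cdsn in 6 of 6 tumors, by 2.18 ± 0.97 on the log2 scale, and Krt18 lay above Cdh1 in 6 of 6 tumors, by 4.22 ± 0.99. Both gave p = 0.03125, the smallest that 6 tumors allow, and an adjusted p of 0.141, so no pair passed the correction by this exact test. The other 7 pairs of neighbors were not shown to differ beyond their spread (exact sign-flip p between 0.0625 and 0.875). Cdsn and Krt18 changed places between groups: Cdsn was higher in the 3 NaCl tumors (21.6 to 36.2 TPM against 12.4 to 22.8 TPM) and lower in the 3 H89-treated tumors (6.25 to 8.01 TPM against 8.67 to 9.09 TPM).

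Krt18, Fat2 and Cdsn were all highest in NaCl tumor 3 and lowest, among the NaCl tumors, in NaCl tumor 1 (for Krt18 nearly level with NaCl tumor 2), whereas among the H89-treated tumors they followed no common order. In the same NaCl tumors the summed CPM of 5 endothelial genes was 76.6, 103 and 130, with NaCl tumor 3 the highest for 3 of the 5 genes, against 65.6, 99.1 and 81.7 in the H89-treated tumors. Csn3 (kappa-casein), which had the highest mean CPM of 8 listed mammary genes, was 7.72, 10.7 and 18.7 CPM with NaCl and 3.58, 6.79 and 4.07 CPM with H89 (log2 fold change -1.36, SE 0.36, edgeR adjusted p = 0.0861). The casein thus ordered the NaCl tumors as the 3 genes did, and so did other listed sums. That of the adipocyte list was 11.8, 29.4 and 35.6 CPM in NaCl tumors 1 to 3, and that of the epidermis list 133, 141 and 154 CPM. The adherens and tight junction sum rose in this order too. The sums of the colon, fibroblast, epithelial factor and other keratin lists fell from NaCl tumor 1 to 3. How many of all genes took either order was not counted. The part of vessels or of other cell types in these values was not tested.

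By Pearson's r of log2(CPM + 0.5) over the 6 tumors, the 3 genes nearest to Krt18 were Cct7, Myct1 and Gbx1 (r = 0.994 to 0.998). Those nearest to Fat2 were Ddx21, Commd1 and Erlin1 (r = 0.990 to 0.993), and those nearest to Cdsn were Nap1l4, Scg5 and Cox6a2 (r = 0.996 to 0.998). These values describe 6 points that share their libraries, their scaling and the split into groups, and an r of at least 0.9 was reached with Krt18 by 3.10%, with Fat2 by 1.82% and with Cdsn by 4.57% of all other genes tested. With CPM of the total count, 0 of 3 of the nearest genes were shared for Krt18, 0 of 3 for Fat2 and 1 of 3 for Cdsn. Cox6a2, a muscle-type subunit of cytochrome oxidase, was 6.62, 7.01 and 9.14 CPM with NaCl and 2.60, 1.76 and 1.89 CPM with H89.

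Krt8, Krt19, Epcam and Dsp were highest in H89-treated tumor 1, and so were some other epithelial genes and most listed genes of fat and muscle. Of the listed genes above 0 in any tumor, that tumor was the highest for 11 of 27 adherens and tight junction genes, 8 of 16 epithelial transcription and splicing factors and 6 of 15 desmosome genes. It was the highest for 5 of 18 epidermis genes, 2 of 14 colon genes and 6 of 29 other keratins. The share of all genes that were highest in that tumor was not computed. The claudins Cldn3 and Cldn4 were counted 17 and 18 times there and 0 times in the other 5 tumors. Of 7 adipocyte genes 6, and of 10 skeletal muscle genes 9, had their highest value in that tumor. The sum of the muscle list was 31.6 CPM in H89-treated tumor 1, 7.72 and 4.86 CPM in H89-treated tumors 2 and 3, and 7.38 to 8.02 CPM in the NaCl tumors. The sum of the adipocyte list overlapped between groups, with 11.8 to 35.6 CPM in the NaCl tumors and 13.4 to 35.0 CPM in the H89-treated tumors. Single defining genes stood out more: Acta1 (skeletal muscle actin) was 12.3 CPM in H89-treated tumor 1 and at most 0.576 CPM elsewhere, Cfd (adipsin) 7.45 CPM against at most 0.447 CPM, and Adipoq (adiponectin) 1.497 CPM against at most 0.0912 CPM. Tnni2, Tnnt3 and Retn were also highest there (4.71, 2.14 and 1.66 CPM), whereas Fabp4 was highest in NaCl tumor 3 (34.9 CPM). Without H89-treated tumor 1, Krt19 and Krt8 had log2 fold changes of 0.82 and 0.22, while that of Krt7 was 1.31. The part of fat, muscle or another epithelial tissue in the levels of Krt8, Krt19, Epcam and Dsp was not tested.

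**Figure D4:**
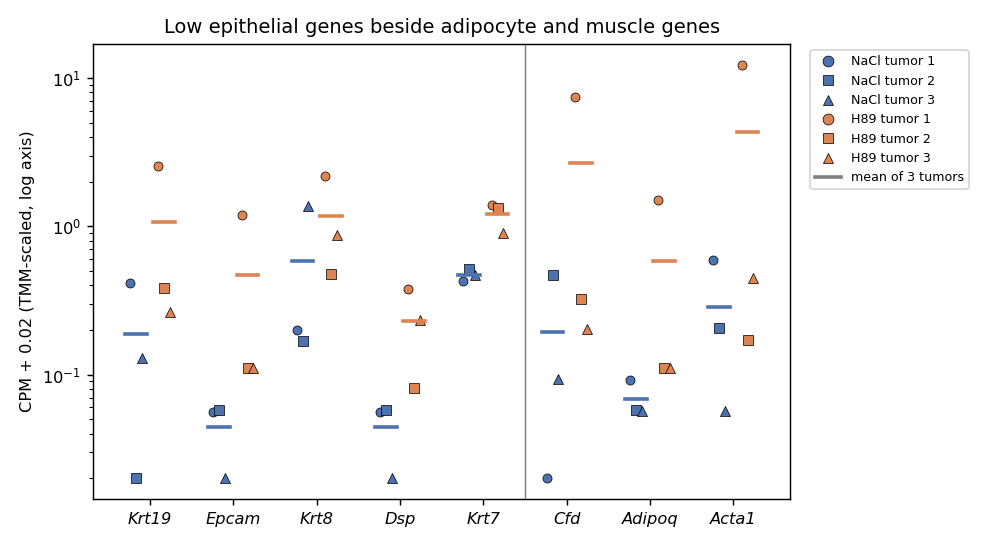
CPM (TMM-scaled, plus 0.02, log axis) of Krt19, Epcam, Krt8, Dsp and Krt7 beside the adipocyte genes Cfd and Adipoq and the muscle gene Acta1, in each of 3 NaCl (blue) and 3 H89-treated tumors (orange), bars at the mean of 3 tumors. The orange circle, H89-treated tumor 1, is the highest point for each gene, by a wide margin for Epcam, Cfd, Adipoq and Acta1 and by little for Krt7 (1.38 against 1.32 CPM).

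Cdsn and Fat2 are known from skin, and 30 epidermis genes were therefore set beside them. Of these 29 had a column, 11 were at 0 in every tumor and 18 never passed 3 counts. The defining genes Ivl (involucrin) and Krt1 were at 0 in all tumors, Lor (loricrin) had at most 1 count, and Krt5, the type II keratin of basal keratinocytes, at most 3 counts. Only 5 of the list passed the filter (Lgals7, Sfn, Krt10, Tgm1 and Cst6), with 0 called by edgeR at an adjusted p under 0.05, 2 lower at an unadjusted p under 0.05, and 1 (Lgals7) called by DESeq2, which called 10.8% of all genes. Their median log2 fold change was -0.19, beside 0.004 over all genes tested. Lgals7 (galectin-7), an epithelial galectin of the skin, carried most of the summed level of 133 to 154 CPM with NaCl and 95.9 to 121 CPM with H89. It was 120.5, 130 and 140 CPM in the NaCl tumors and 106, 89.2 and 84.3 CPM in the H89-treated tumors (log2 fold change -0.48, SE 0.11, edgeR adjusted p = 0.0665). Cst6 (cystatin M), a protease inhibitor of cornifying cells, had a log2 fold change of -0.64 (SE 0.22, edgeR adjusted p = 0.138). Sfn and Tgm1 overlapped between groups (edgeR adjusted p = 0.567 and 0.660). Below the filter, Trp63 and Tgm3 were higher in all H89-treated tumors. Trp63 was 0.180 to 0.329 CPM with NaCl and 0.535 to 1.03 CPM with H89. Tgm3 was 0.1625 to 0.385 CPM with NaCl and 0.4775 to 0.778 CPM with H89. Krt14, near the floor, was lower in all of them (0.110 to 0.180 CPM against 0.0304 to 0.107 CPM). Cdsn at 10.3 to 69.7 CPM was thus accompanied by next to no transcripts of loricrin, involucrin or the basal and suprabasal keratin pairs apart from Krt10.

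**Figure D5:**
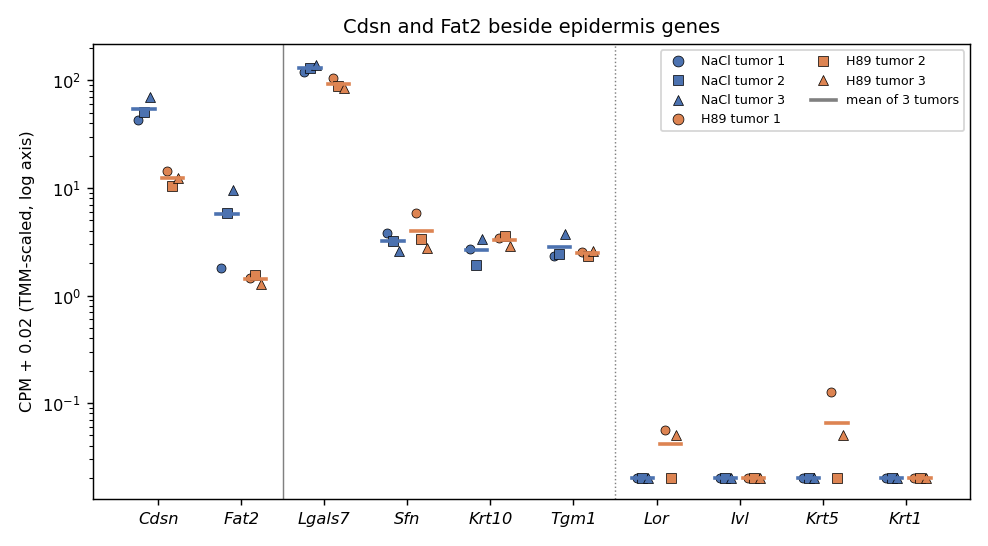
CPM (TMM-scaled, plus 0.02, log axis) of Cdsn and Fat2 beside 4 detected epidermis genes (Lgals7, Sfn, Krt10, Tgm1) and 4 genes that define epidermal layers (Lor, Ivl, Krt5, Krt1), per tumor, blue for NaCl and orange for H89, bars at the mean of 3 tumors. Lgals7 lies between 84.3 and 140 CPM, whereas Ivl and Krt1 are at 0 in all 6 tumors.

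The partners of the set in cell junctions were measured from 6 lists: other keratins, desmosome, adherens and tight junction, FAT, Dachsous and CELSR cadherins, epithelial transcription and splicing factors, and mesenchymal genes. Together they held 130 distinct genes, and 43 passed the filter. None of the 43 was called by edgeR at an adjusted p under 0.05, 12 had an unadjusted p under 0.05, and DESeq2 called 4 (Klf4, Nectin2, S100a4 and Twist2). Over all genes, edgeR had 25.0% at the unadjusted p and called 1.59%, and DESeq2 called 10.8% of the 13062 genes to which it gave an adjusted p.

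Of 17 desmosome genes 5 were tested, none with an unadjusted p under 0.05 in edgeR (0 called by DESeq2), and the median log2 fold change was -0.09. The 3 with the smallest p were Dsg2, Pkp2 and Jup, whose groups overlapped (log2 fold changes 0.75, -0.27 and -0.09, edgeR adjusted p = 0.287 to 0.695). Per length, the armadillo proteins Jup (plakoglobin), which also sits in adherens junctions, and Pkp4 had levels of 24.1 to 32.5 TPM and 26.6 to 33.7 TPM. The desmosomal cadherin Dsg2 had a level of 0.108 to 0.419 TPM and Dsp one of at most 0.0617 TPM. Of 27 adherens and tight junction genes 16 were tested, 3 higher and 1 lower at an unadjusted p under 0.05, with a median of 0.05. Ctnnb1 (beta-catenin), which binds cadherin tails, was at 263 to 335 CPM. Ctnna1 (alpha-catenin), which links cadherins to actin, was at 436 to 548 CPM, and Cdh1 at 1.05 to 2.84 CPM. Per length the catenins came to 493 to 661 TPM and 850 to 1007 TPM, against 0.394 to 1.01 TPM for Cdh1. The catenin TPM lay above their CPM, since the median coding length used for them was short. Their distance from Cdh1 per length may therefore be overstated. Nectin2, an adhesion receptor of the immunoglobulin family, was 38.9, 35.7 and 36.1 CPM with NaCl and 29.1, 29.9 and 27.3 CPM with H89 (log2 fold change -0.36, SE 0.09, edgeR adjusted p = 0.0729). Spint2, an inhibitor of epithelial surface proteases, and Nectin3 had log2 fold changes of 0.55 and 0.56 (edgeR adjusted p = 0.176 and 0.178).

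Of 7 relatives of Fat2 with a column 5 were tested, 2 with a higher value at an unadjusted p under 0.05 and none with a lower one, with a median log2 fold change of 0.28. Fat1, the widely expressed relative, was 94.8, 109 and 95.4 CPM with NaCl and 108, 132 and 124 CPM with H89 (log2 fold change 0.28, SE 0.10, edgeR adjusted p = 0.149). Celsr3, a cadherin of planar polarity known mainly from neurons, had 0.366 to 0.576 CPM with NaCl and 0.784 to 1.28 CPM with H89 (log2 fold change 1.29, edgeR adjusted p = 0.0827). Its NaCl mean of 0.450 CPM lay under the filter of 0.5 CPM, which it passed through its H89 mean of 1.10 CPM. Celsr1, also of planar polarity, overlapped between groups at 0.366 to 2.25 CPM (log2 fold change 0.89, SE 0.62, edgeR adjusted p = 0.404). Fat1 was thus on the other side of 0 from Fat2, and none of Fat1, Celsr3 and Celsr1 passed the test.

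Of 17 epithelial transcription and splicing factors 3 were tested, 2 of them lower at an unadjusted p under 0.05. Klf4, a zinc finger factor of differentiating epithelium that other cells use too, was 342.5, 314.2 and 283.7 CPM with NaCl and 242.3, 245.5 and 256.3 CPM with H89 (log2 fold change -0.34, SE 0.09, edgeR adjusted p = 0.0903). Klf5, a factor of proliferating gut epithelium, was 30.97, 28.1 and 32.2 CPM with NaCl and 17.7, 20.2 and 27.4 CPM with H89 (log2 fold change -0.48, edgeR adjusted p = 0.128). Grhl1, a grainyhead factor, overlapped at 0.820 to 1.57 CPM (log2 fold change 0.34, SE 0.31, edgeR adjusted p = 0.530). Grhl2 and Esrp1, regulators that defend the epithelial state, stayed at or under 0.213 and 0.143 CPM. All 12 mesenchymal genes were tested, 1 higher and 3 lower at an unadjusted p under 0.05, with a median of -0.13. S100a4 was 1343, 1389 and 1362 CPM with NaCl and 1107, 989 and 934 CPM with H89 (log2 fold change -0.43, SE 0.09, edgeR adjusted p = 0.0615), and Twist2 and Twist1, factors known to repress Cdh1, had log2 fold changes of -0.53 and -0.31 (edgeR adjusted p = 0.0665 and 0.158). Vim overlapped between groups at 5739 to 7565 CPM.

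Markers of other possible sources of these transcripts were read as well. Of 6 mesothelial genes, Msln (mesothelin), which carcinoma lines also make, was 164 to 211 CPM, Wt1 0.256 to 0.899 CPM, Lrrn4 0.0719 to 0.425 CPM and Upk3b at most 0.0373 CPM, and Msln and Wt1 overlapped between groups (edgeR adjusted p = 0.755 and 0.734). Of 8 mammary genes 3 were at 0 in all tumors, and Csn3 and Prlr (prolactin receptor, log2 fold change 2.48, SE 0.60, edgeR adjusted p = 0.0751) were tested, with 0 called by edgeR, 2 at an unadjusted p under 0.05, and 2 called by DESeq2, against 10.8% of all genes. Prlr passed the filter through its H89 mean of 1.05 CPM, against 0.185 CPM with NaCl. Elf5 was 0.311 to 0.517 CPM and Ltf 0.0360 to 0.357 CPM. Of the fibroblast genes Col1a2, Dcn and Pdgfra had log2 fold changes of 0.32, 0.34 and 0.32 (edgeR adjusted p = 0.120, 0.183 and 0.258). Of the endothelial genes Pecam1, Cdh5 and Vwf had -0.30, -0.48 and 0.43 (edgeR adjusted p = 0.277, 0.295 and 0.320), and of the leukocyte genes Cd8a and Ncr1 had 1.76 and 1.46 (edgeR adjusted p = 0.104 and 0.111). The summed level of 5 fibroblast genes was 2171 to 2437 CPM with NaCl and 2449 to 3136 CPM with H89, and that of 8 leukocyte genes was 311.5 to 430 CPM with NaCl and 394 to 532 CPM with H89. The leukocyte sum and Ptprc (log2 fold change 1.01, SE 0.21, edgeR adjusted p = 0.0547) were highest in H89-treated tumor 3. The part of a larger leukocyte fraction in the lower levels of Krt18, Krt20, Cdsn and Fat2 was not tested.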

How the data were processed

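Total RNA of 6 CT26 tumors, 3 mice per group, was sequenced on the BGISEQ-500 platform. The deposited table lists 23557 genes by symbol for every tumor. It is called TPM, but the values of a tumor sum to 27067349 to 31958793 and 58.6% to 61.4% of the values above 0 lie within 0.01 of a whole number, so the values the authors deposited were read as estimated counts. The submitters' processing notes name kallisto, DESeq2 and GRCm38, and the annotation is not given in the sources used here. Gene columns entered the record singly for 229 genes, with the remaining 23328 taken to hold the same unit.

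Counts were rounded and tested with edgeR 4.0.16 (R 4.3.3; TMM, glmQLFit, glmQLFTest, treatment as the only term) over 13118 genes whose mean was at least 0.5 CPM, with Benjamini-Hochberg adjustment over all of them. The script was tested on simulated data. The standard error is the log2 fold change over the root of its F statistic. TPM were computed from the counts and the median length of the protein-coding transcripts of GENCODE M21 (23007 genes matched by symbol). Alternatives were other filters, scalings and pseudocounts, limma 3.58.1, DESeq2 1.42.0, a block for the replicate number, and leaving out tumors singly. CPM of the total count and the balance over every keratin were added after seeing the data. The 10 genes, the lists and the tests were chosen with earlier results of these data known. The text names all 10, other keratins with a mean of at least 0.5 CPM, the 3 genes with the smallest p of each list (up to 4 by level for the epidermis, colon, mesothelium and mammary lists) and the 3 nearest genes by r. The order of the 10 genes was that of the mean log2(TPM + 0.01). Genes that define a cell type or junction (Cdx2, Ivl, Krt1, Lor, Krt5, Pkp4, Cldn3, Cldn4, Ctnna1, Ctnnb1, Grhl2, Esrp1, Adipoq, Vim) were named in addition after their values were seen. So were Trp63, Tgm3 and Krt14 of the epidermis list. Flg, Muc2 and Dchs2 were not analysed here.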

Additional observations from a re-analysis of the deposited data

How the results depend on the processing

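With 3 tumors per group, calls over all genes were unstable while the values of the 10 genes changed little in direction. The count of genes called was 208, and 81 after quantile normalization with limma, 1406 with DESeq2 and between 176 and 311 in 7 other settings. With 1 tumor left out it was 0 to 12 (edgeR, 2421 to 3453 genes at an unadjusted p under 0.05). The labels number the tumors 1 to 3 in each group, but deviations from the group means correlated at 0.164, 0.0629 and -0.0256 between tumors of the same number, so the numbers were not taken as pairs. With the replicate number as a block, edgeR called 0 genes (3750 at an unadjusted p under 0.05). Among the genes of the 6 lists, 0 were called in 15 settings and 4 with DESeq2. In all 11 alternatives 4 of the 10 genes had every H89-treated tumor below the NaCl tumors, and 3 or 4 had every one above. Leaving out a tumor cannot undo such a separation, so in those alternatives the counts could only stay or rise. They are no check of the separation. The log2 fold changes of Krt18, Krt20, Fat2 and Cdsn were negative and those of Krt7, Krt8 and Krt19 positive in every setting run, whereas that of Cdh1 was negative in 4 of 16. With 1 tumor left out, the log2 ratio of Krt8 over Krt18 was -5.22 to -4.33 and that of type II over type I keratins -6.65 to -6.01, both with p = 0.0625, the smallest that the exact test on 5 tumors allows. With the longest transcript as length they were -4.77 and -6.68. Depth limits Krt8, Krt19, Epcam and Dsp most, which had 5 or fewer counts in at least 1 NaCl tumor.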
